A study of Saccharomyces cerevisiae with 109 samples.

Results

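Aminoacyl-tRNA synthetases attach each amino acid to its tRNA, and 36 of the 6297 genes in the table of Saccharomyces cerevisiae expression ratios are described here. They were listed by systematic gene name and not by a rule on measured values, though earlier results of these data were known when the list was made. The cytosolic set held 23 genes, of which 21 encode synthetases or synthetase subunits for the cytosol, together with ARC1, a tRNA-binding cofactor of the cytosolic methionyl- and glutamyl-tRNA synthetases, and GRS2, a paralog of the glycyl-tRNA synthetase gene GRS1. The mitochondrial set held 13 nuclear genes for synthetases of the organelle.

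Each 2-colour array compared a stressed culture with an unstressed one of its own strain, and each value is the log2 ratio of the channels, positive where the transcript was more abundant after stress. The histone deacetylase Rpd3p was studied through deletion strains of the BY4741 background: rpd3Δ, which grows more slowly than wild type, pho23Δ (a subunit of the large Rpd3 complex), rco1Δ (a subunit of the small complex), ume6Δ (a DNA-binding recruiter of Rpd3p), msn2Δmsn4Δ (without 2 stress-activated transcription factors) and the triple mutant msn2Δmsn4Δrpd3Δ. At 30 min of 0.4 mM H2O2 there were 3 arrays each of rpd3Δ, pho23Δ, rco1Δ, msn2Δmsn4Δ and the triple mutant, 4 of ume6Δ and 8 of wild type, together with 3 of RMY491, in which 4 lysines of histone H4 are replaced by glutamine (H4KQ), and 3 of its own wild type NSY429, both carrying H4 on a plasmid and grown without tryptophan. H2O2 was also followed at 10, 20, 30, 40 and 60 min in 1 course each of rpd3Δ, pho23Δ, rco1Δ and wild type. Heat shock, a shift of cells grown at 25 °C to 37 °C (30 °C before the shift for the 5 arrays of the second rpd3Δ course, by the labels), was followed in 2 courses with 9 arrays each of rpd3Δ and wild type, 0.75 M NaCl in 2 courses with 7 arrays each, and stress relief, a shift of cells grown at 37 °C to 25 °C, in 2 courses with 7 arrays each. On 3 arrays unstressed rpd3Δ was set against unstressed wild type. Single arrays covered wild type heat-shocked with 10 μM trichostatin A, a deacetylase inhibitor, or its solvent DMSO, and rpd3Δ cells carrying an empty plasmid (pRS415), wild-type RPD3 or the allele rpd3H150:151A, whose product is catalytically inactive, grown without leucine.

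Each synthetase recognises the tRNAs of 1 amino acid, and the enzymes fall into classes I and II, which differ in the fold of the catalytic domain. Budding yeast keeps separate nuclear genes for many cytosolic and mitochondrial synthetases, because mitochondria translate their own few mRNAs with their own tRNAs. A few genes, among them ALA1, GRS1, HTS1 and VAS1, give rise to both forms. In the cytosol the synthetases feed the bulk of protein synthesis, and their genes are commonly grouped with those of the translation machinery, which growing cells express strongly and which stressed yeast cells turn down.

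The arrays measured 4288 to 6115 genes and 26 to 36 of the 36 synthetase genes each (median 34), and the number of arrays limits the precision. Some arrays stood apart from the others of their strain at 30 min of H2O2. The correlation across genes with the mean of the other arrays of the strain was 0.834 for wild-type replicate 8, against 0.898 to 0.969 for the other wild-type arrays, and 0.572 for ume6Δ replicate 4, against 0.847 to 0.921. It was also low for rco1Δ replicate 1 (0.842, against 0.888 and 0.901). These 3 arrays were left out in an alternative, which kept others with low correlations in smaller groups, msn2Δmsn4Δ replicates 1 and 3 (0.716 and 0.793), H4KQ replicate 3 (0.701) and NSY429 replicate 1 (0.775). Values of all genes were less spread on the rpd3Δ arrays (SD 0.846 to 1.03) than on the wild-type arrays (SD 0.991 to 1.44), so the median differences between strains are given on the deposited scale and also with all arrays scaled to 1 spread. Scaling also removes a response that is weaker in a strain over all genes. Whether the smaller spread in rpd3Δ is such a response or a matter of technique was not tested. Ratios of stressed over unstressed cells of 1 strain do not check a deletion, and of the 3 arrays of unstressed rpd3Δ over wild type 1 measured RPD3, at -2.57. The labels do not say whether replicate arrays came from separate cultures, so the p-values measure the spread between these arrays. A gene entered a fit if 80% or more of its arrays had a value, with limma and Benjamini-Hochberg adjustment over all genes tested, at an adjusted p under 0.01 for responses of wild type and under 0.05 for differences between strains. A count of members called is read beside the share of all genes called in the same fit. Without that share it is no result about the members. In bulk RNA a lower ratio can come from less transcript per cell or from fewer cells that hold it, and these arrays do not tell the 2 apart.

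H2O2 lowered the transcripts of nearly all cytosolic synthetases in wild type within 30 min, and raised those of most mitochondrial ones. Of the 21 cytosolic genes tested, 20 fell and none rose, where 68.4% of all genes were called, 34.1% lower and 34.3% higher. Of the 11 mitochondrial genes tested, 8 rose and 1 fell. The median log2 ratio was -1.04 over the cytosolic genes and 0.57 over the mitochondrial genes, beside 0.01 over all 5212 genes. Without wild-type replicate 8, ume6Δ replicate 4 and rco1Δ replicate 1 the medians were -1.17 and 0.68, and 20 of 21 cytosolic genes fell and 9 of 10 mitochondrial genes rose, where 69% of all genes changed. With all arrays scaled to 1 spread 18 of 21 cytosolic genes fell, while 6 of 11 mitochondrial genes rose and 1 fell, where 62.3% of all genes changed (medians -0.86 and 0.47). DPS1 and GUS1 among the cytosolic and MSR1 and DIA4 among the mitochondrial genes no longer passed then.

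The largest fall was that of YHR020W, the gene of the prolyl-tRNA synthetase, which has no other symbol here. Its log2 ratio on the 8 wild-type arrays ran from -2.70 to -0.51 with a median of -1.94, and the fitted mean was -1.89 (SE 0.23, limma adjusted p = 6.08e-08). Its transcript was below the unstressed level on all 8 arrays, and the highest value was that of replicate 8. ALA1 (YOR335C), the alanyl-tRNA synthetase gene that serves both compartments, ran from -2.01 to -0.91 with a median of -1.65 (fitted mean -1.57, SE 0.16, limma adjusted p = 6.88e-09). CRS1 (YNL247W), for cysteine, ran from -2.15 to -0.62 with a median of -1.51, and its fall of 1.52 on the log2 scale had the lowest adjusted p of the cytosolic set (1.36e-09, limma). All 3 genes were lower on every wild-type array. FRS2, the alpha subunit of the phenylalanyl enzyme, averaged -1.51 and its partner subunit FRS1 -1.01, and both fell. The smallest falls that passed the test were those of DPS1, for aspartate, at -0.36 (SE 0.12) and of ARC1 at -0.43 (SE 0.10).

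**Figure D1:**
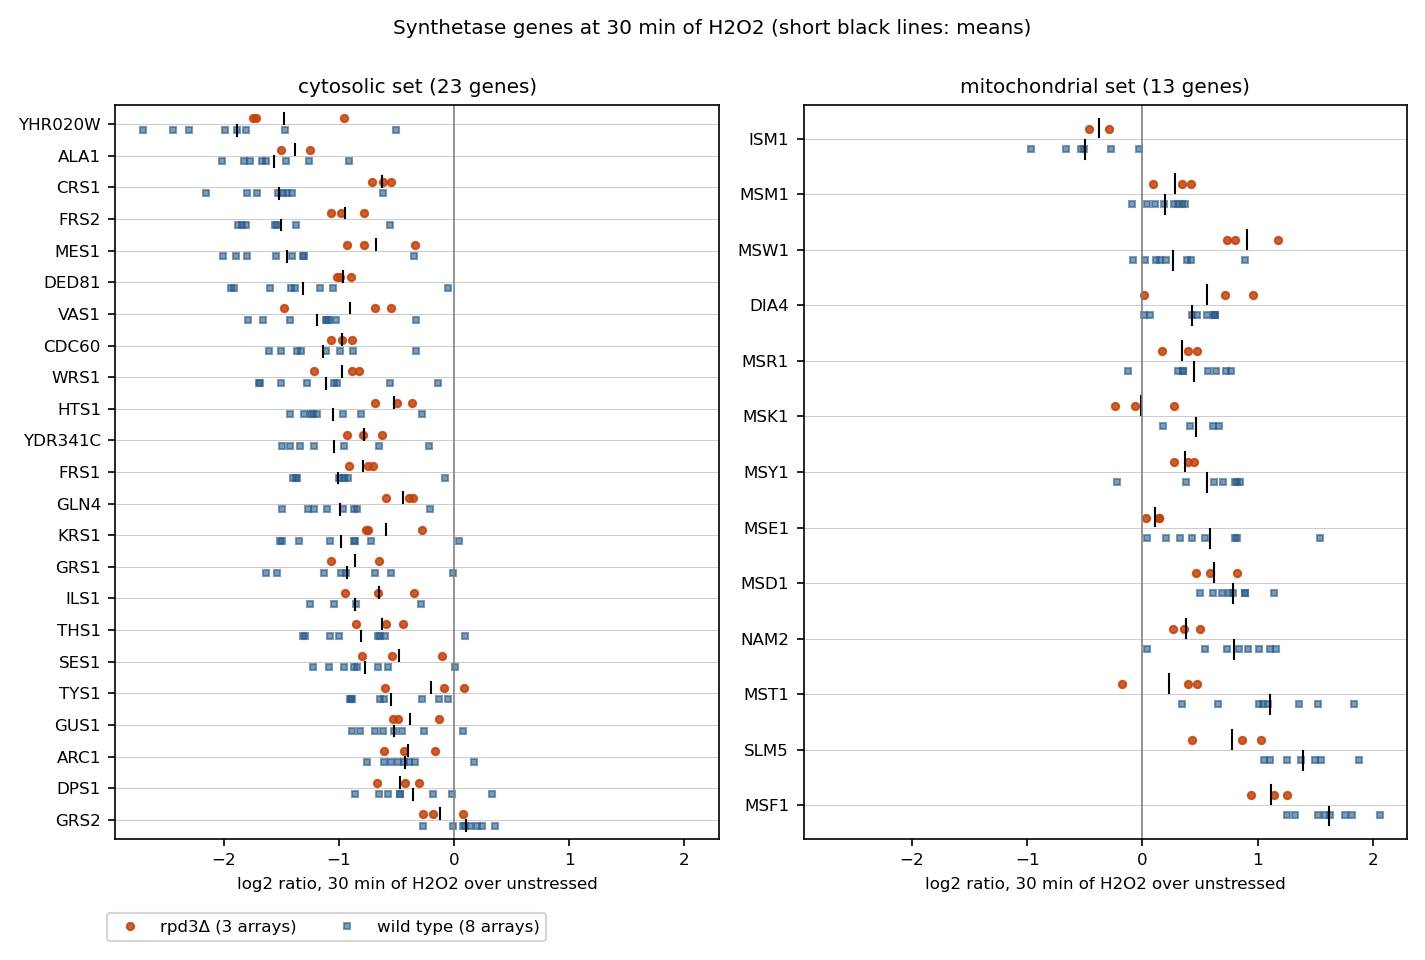
Log2 ratio of 30 min of H2O2 over unstressed cells for each synthetase gene, with 1 point per array and a short line for the mean, rpd3Δ above wild type within each gene, cytosolic genes on the left and mitochondrial genes on the right. Nearly all cytosolic genes lie below 0 in both strains, down to -2.70 for YHR020W in wild type, while most mitochondrial genes lie above 0, up to 2.06 for MSF1.

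By enzyme class, all 9 class I genes tested fell, with a median of -1.12, and 10 of 11 class II genes fell, with a median of -1.005. Among the mitochondrial genes the median was 0.45 over 7 of class I, of which 4 rose and 1 fell, and 0.95 over 4 of class II, which all rose. The difference between the classes was not tested. The genes that supply both compartments went with the cytosolic set, since ALA1, HTS1 and VAS1 all fell (median of the 3 genes -1.19). GRS1, the fourth of them, was measured on too few arrays of the other strains to be tested here.

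ARC1 forms a complex with the methionyl- and glutamyl-tRNA synthetases MES1 and GUS1, and the 3 transcripts fell by unequal amounts. MES1 ran from -2.003 to -0.35 over the wild-type arrays with a median of -1.48 (fitted mean -1.45, SE 0.16). GUS1 ran from -0.88 to 0.08 with a median of -0.57 (fitted mean -0.52, SE 0.14). ARC1 ran from -0.76 to 0.17 with a median of -0.46 (fitted mean -0.43). All 3 passed the test, and GUS1 and ARC1 were above 0 on replicate 8 alone. The limma adjusted p of GUS1 was 0.0122 with the arrays scaled to 1 spread. The difference between the 3 genes was not tested.

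Of the paralogs, GRS1 was below 0 on all 8 wild-type arrays, from -1.63 to -0.01 with a median of -0.96. GRS2 ran from -0.27 to 0.35 with a median of 0.11, and it was the only tested cytosolic gene that did not pass (fitted mean 0.10, SE 0.09, limma adjusted p = 0.291). The ranges overlapped only between -0.27 and -0.01, and the difference was not tested. Whether the probes tell these similar transcripts apart is not given in the sources used here.

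Among the mitochondrial genes, MSF1 (YPR047W), the phenylalanyl-tRNA synthetase of the organelle, had the largest rise that passed. It ran from 1.26 to 2.06 with a median of 1.61 (fitted mean 1.62, SE 0.12, limma adjusted p = 2.81e-11) and was above 1 on all 8 wild-type arrays. MST1 (YKL194C), for threonine, ran from 0.34 to 1.83 with a median of 1.07 (fitted mean 1.11, SE 0.18, limma adjusted p = 8.36e-06). NAM2, the leucyl-tRNA synthetase that also takes part in splicing of mitochondrial introns, averaged 0.79 (SE 0.16), and MSD1, for aspartate, averaged 0.78 (SE 0.11). SLM5, for asparagine, was measured on 7 wild-type arrays between 1.06 and 1.88, but on too few arrays of the other strains to be tested in this fit.

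ISM1, the mitochondrial isoleucyl-tRNA synthetase, was the exception and fell. On the 6 wild-type arrays that measured it the ratio was -0.97, -0.03, -0.51, -0.27, -0.67 and -0.53 (fitted mean -0.50, SE 0.11, limma adjusted p = 0.000555). It was below 0 on each array and lay near 0 on 1. It was also below 0 on each 30 min array of the BY4741 mutants that measured it, with -1.09, -0.83 and -0.65 in the triple mutant.

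Genes for the same amino acid can be set side by side, because 14 cytosolic genes have a mitochondrial counterpart. In wild type at 30 min of H2O2 the mean of the cytosolic gene lay below that of its counterpart in all 14 pairs, and the 2 means had opposite signs in 13. The exception in sign was isoleucine, with a mean of -0.86 for cytosolic ILS1 over 4 arrays and -0.50 for mitochondrial ISM1 over 6. In 10 pairs the cytosolic gene was the lower one on every array that measured both. The gap was widest for phenylalanine, where the difference on the log2 scale was -3.14 for FRS2 minus MSF1 (SD 0.51, 7 of 7 arrays below 0) and -2.63 for FRS1 minus MSF1 (SD 0.49, 8 of 8), and for asparagine, with -2.74 for DED81 minus SLM5 (SD 0.81, 7 of 7). It was -1.92 for threonine (THS1 minus MST1) and -1.93 for leucine (CDC60 minus NAM2). For isoleucine the difference on the arrays that measured both genes averaged -0.0066, within its SD of 0.33. Ratios of different genes rest on different probes, so these gaps compare changes and not levels.

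**Figure D2:**
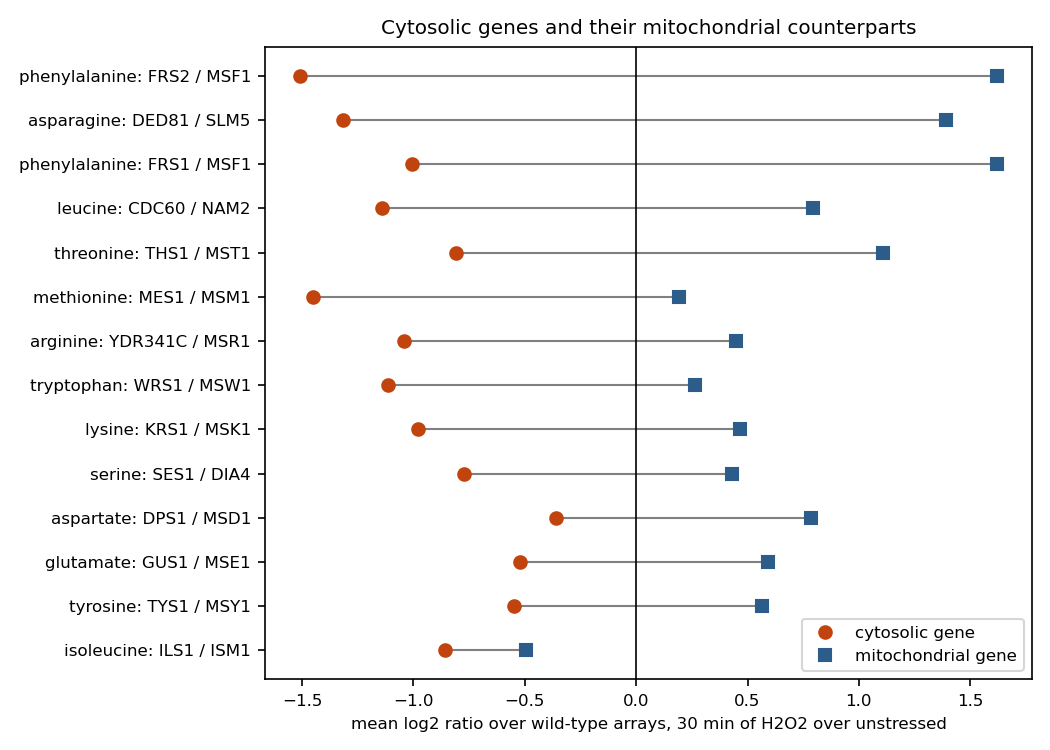
Mean log2 ratio over the wild-type arrays at 30 min of H2O2 for the 14 cytosolic genes that have a mitochondrial counterpart, with a line joining the cytosolic and the mitochondrial gene of each pair. The lines cross 0 in 13 of 14 pairs, and the pair of ILS1 and ISM1 lies below 0 at both ends.

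The same order of the sets held on most stress arrays. The mean over the cytosolic genes lay below that over the mitochondrial genes on 87 of the 92 arrays of heat shock, H2O2 and NaCl, counting all strains and treatments. The 5 exceptions were the 10 and 20 min arrays of the rco1Δ H2O2 course, with the cytosolic mean 0.62 and 0.29 above the mitochondrial mean, ume6Δ replicate 4 (0.52 above), the 15 min array of wild type in NaCl (0.36 above) and 1 array of rpd3Δ at 60 min of NaCl (0.10 above). During stress relief the order was turned on 13 of 14 arrays, and the exception was an rpd3Δ array at 10 min, with a difference of -0.07.

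**Figure D3:**
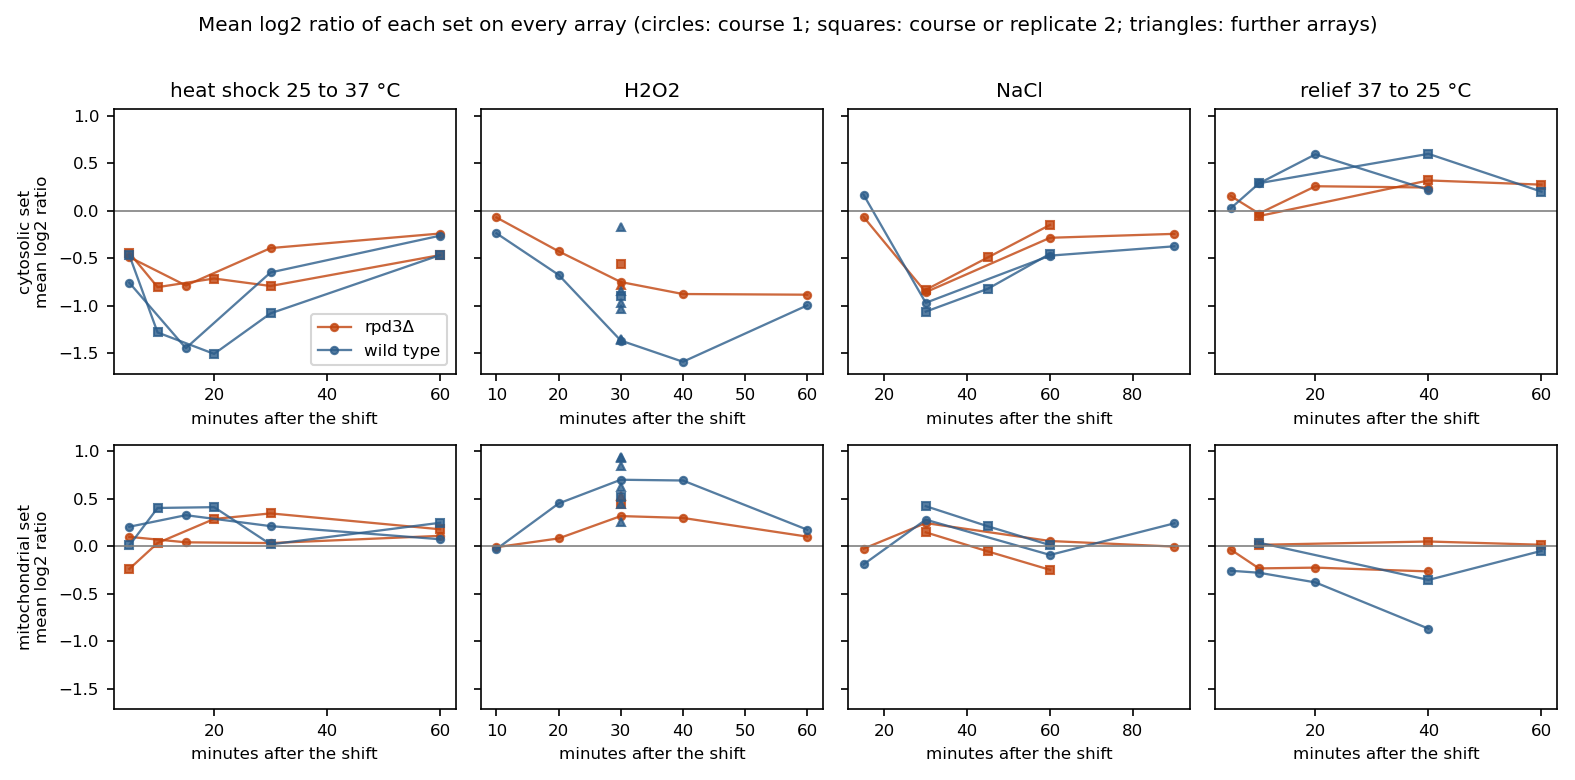
Mean log2 ratio of the cytosolic set and of the mitochondrial set against time in min, with 1 point per array, for H2O2, heat shock, NaCl and stress relief in rpd3Δ and wild type. In wild type the cytosolic mean reached -1.59 at 40 min of H2O2, -1.50 at 20 min of heat shock and -1.01 on average at 30 min of NaCl, and during stress relief it lay between 0.03 and 0.60.

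Over the H2O2 courses of rpd3Δ and wild type, fitted with the further arrays at 30 min, 21 of 22 cytosolic genes fell in wild type, where 63% of all genes were called (31.3% fell, 31.7% rose). The median of the mean ratios over time was -0.90, beside -0.01 over all genes. The fit also held the arrays of pho23Δ and rco1Δ at these times. Each time but 30 min had 1 array per strain. The p-values of this fit therefore measure the spread between the 30 min arrays and none at the other times. YHR020W was at -0.41 at 10 min, -1.14 at 20 min, -2.90 at 40 min and -1.07 at 60 min. DED81, the asparaginyl-tRNA synthetase gene, was at -0.46, -1.04, -2.46 and -1.51 at the same times, and FRS2 at -0.66, -1.38, -1.86 and -1.15. YHR020W and DED81 were lowest at 40 min and FRS2 at 30 min (-1.88), and all 3 were closer to the unstressed level at 60 min than at 40 min. Of the 23 cytosolic genes measured at all 5 times of the wild-type course, 17 were lowest at 40 min, 4 at 30 min and 2 at 60 min.

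Of the 12 mitochondrial genes tested over the same courses, 7 rose and 1, MSR1 for arginine, was called in the opposite direction, with a mean over the times of -0.15. MSF1 averaged 1.25 over the times and SLM5 1.14, the largest rises, followed by MST1 with 0.64. MSF1 was already at 1.25 at 10 min, was at 1.59 at 20 min and 1.55 at 40 min and was at 0.21 at 60 min. SLM5 was at 0.02, 1.24 and 1.90 at 10, 20 and 40 min. MSR1 was negative at 10 min (-0.41), 20 min (-0.56) and 60 min (-0.31) and positive at 40 min (0.09) and on 7 of the 8 arrays at 30 min, so the sign of its mean hides a change of direction.

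The courses of the mutants were 1 array per time, with no test of the times. The cytosolic mean at 10, 20, 30, 40 and 60 min was -0.07, -0.43, -0.75, -0.87 and -0.88 in rpd3Δ, and -0.24, -0.67, -1.36, -1.59 and -0.99 in wild type. In rpd3Δ 11 of 22 cytosolic genes measured throughout were lowest at 60 min, and in pho23Δ 15 of 22 were. In rco1Δ the lowest values came at the last time. Its cytosolic mean was 0.42 at 10 min, 0.27 at 20 min, -0.33 at 30 min, -0.69 at 40 min and -1.40 at 60 min, and 20 of 21 cytosolic genes were lowest at 60 min. At 10 min all 22 cytosolic genes measured in rco1Δ lay above 0. YHR020W was at 0.54 there and at -2.78 at 60 min, and DED81 at 0.48 and -2.65. The 30 min array of this course is rco1Δ replicate 1, which stood apart from the other rco1Δ arrays, with a cytosolic mean of -0.33 against -1.03 and -1.18.

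Heat shock lowered 11 of the 19 cytosolic genes tested in wild type, where 21.3% of all genes were called (9.28% rose, 12% fell), with a median of -0.93 beside -0.01 over all genes. None of the 8 mitochondrial genes tested was called, none had an unadjusted p under 0.05, and their median was 0.16. VAS1, the valyl-tRNA synthetase gene for both compartments, had the largest fall (mean over the times -1.89, SE 0.20, limma adjusted p = 0.000327). In the first course VAS1 was at -2.38, -4.04, -1.80 and -0.80 at 5, 15, 30 and 60 min, and in the second at -0.67, -1.76, -1.15 and -0.51 at 5, 10, 30 and 60 min. CRS1 was at -1.73, -2.20, -0.85 and 0.03 in the first course, and at -1.67, -2.79, -2.33, -1.40 and -1.28 at 5, 10, 20, 30 and 60 min of the second (mean over the times -1.79). YHR020W averaged -1.65 over the times, and THS1, for threonine, -1.54, with the lowest adjusted p of the set (5.56e-05, limma). VAS1, CRS1 and THS1 were lowest between 10 and 20 min in both courses, and YHR020W at 5 min of the first (-1.17) and 10 min of the second (-3.13). All 4 were nearer to 0 at 60 min. With the arrays scaled to 1 spread 3 genes were called. Fewer were also called with wild-type course 1 or 2 left out, where 1 wild-type array per time remained. The shares of all genes called in these fits are not given here, so the drop is no result about the members.

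Of the ARC1 complex MES1 fell in heat-shocked wild type (mean over the times -1.25, limma adjusted p = 0.0027), while ARC1, at -0.70, and GUS1, at -0.38, did not pass (limma adjusted p = 0.0132 and 0.27). Over the 9 wild-type arrays ARC1 ran from -1.34 to -0.33, GUS1 from -1.02 to 0.19 and MES1 from -2.43 to 0.11. GRS1 averaged -0.76 (limma adjusted p = 0.045, above the threshold of 0.01) and GRS2 0.39 (limma adjusted p = 0.348). On the 7 wild-type arrays with GRS1 it lay between -1.43 and 0.15, against -0.41 to 0.88 for GRS2 on 9. The ranges overlapped, and no difference between these genes was tested.

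In NaCl, 12 of 22 cytosolic genes fell in wild type, where 14.6% of all genes fell (27.4% were called in all), and 2 of 11 mitochondrial genes rose, where 12.8% rose. The medians were -0.52 and 0.09, beside -0.08 over all genes. YHR020W was again the gene with the largest fall (mean over the times -1.06, SE 0.12). It was at -0.02 at 15 min, -1.92 and -2.30 at 30 min, -1.29 at 45 min, -1.19 and -0.59 at 60 min and -1.01 at 90 min. MES1 was at 0.15 at 15 min and at -1.25 and -1.76 at 30 min (mean over the times -0.82), and FRS2 at -0.31, -1.75 and -1.35 (mean over the times -0.80). All 3 were nearest to the unstressed level at 15 min and lowest at 30 min. The 2 mitochondrial genes were MSF1, with 1.16 and 1.01 at 30 min, and MST1, with 0.95 and 1.35 (mean over the times 0.56 for both, limma adjusted p = 0.00797 and 0.0077). With the course as a block, 10 cytosolic genes and no mitochondrial gene were called, and the limma adjusted p of MSF1 and MST1 was 0.0112 and 0.0121. With filters on empty cells of 50% or none 8 genes were called, and with arrays scaled to 1 spread 6. Fewer were also called with wild-type course 1 or 2 left out, where 1 wild-type array per time remained. The shares of all genes called in these alternatives are not given here. ARC1 averaged -0.40, GUS1 -0.26, GRS1 -0.53 and GRS2 0.003, and none of these 4 passed.

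Stress relief gave no call for any of the 34 members tested in wild type, and none for all 5330 genes (0%, limma). At an unadjusted p under 0.05 there were 7 cytosolic genes and 1 mitochondrial gene, 8 of 34 members, where 27.7% of all genes were. The cytosolic median was 0.25 and the mitochondrial median -0.26, beside -0.01 over all genes, and 20 of 22 cytosolic genes lay above 0 while all 12 mitochondrial genes lay below it. KRS1, for lysine, was at 0.41, 0.91, 1.44 and 1.03 at 5, 10, 20 and 40 min of the first wild-type course and at 1.08, 0.84 and 0.33 at 10, 40 and 60 min of the second. MSF1 was at -0.33, -0.76, -1.10 and -2.17 in the first course, and at -0.33, -0.97 and -0.15 in the second. KRS1 was above 0 and MSF1 below 0 on each of the 7 arrays, and these 2 were the members called when the course was fitted as a block (0.83 for KRS1 and -0.72 for MSF1). How many of all genes that fit called is not given here. The wild-type relief arrays at 10 min correlated at -0.344 to -0.0879 across genes with wild-type heat shock arrays at 30 min (4 pairs), and the labels give the dyes of both.

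Deletion of RPD3 left the direction of the response to H2O2 in place in both sets. At 30 min the cytosolic mean was -0.70 ± 0.12 in rpd3Δ (SD, n = 3) and -0.998 ± 0.399 in wild type (SD, n = 8), or -1.12 ± 0.23 without wild-type replicate 8 (n = 7). The mitochondrial mean was 0.43 ± 0.10 in rpd3Δ and 0.66 ± 0.24 in wild type. The difference of the responses, rpd3Δ minus wild type, had a median of 0.29 over the cytosolic and -0.16 over the mitochondrial genes, beside 0.02 over all genes. Of the 21 cytosolic and 11 mitochondrial genes tested, 1 of each was called, both higher in rpd3Δ, where 24.3% of all genes were called, 14.2% higher and 10.1% lower. At an unadjusted p under 0.05 there were 4 cytosolic and 3 mitochondrial genes, 7 of 32 members, where 35% of all genes were. Both shares were below those of all genes.

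CRS1 was the cytosolic gene that differed. It was at -0.72, -0.55 and -0.62 in rpd3Δ, against -2.15 to -0.62 in wild type, with a median of -1.51 (difference 0.89, SE 0.27, limma adjusted p = 0.0187). The ranges met only through wild-type replicate 8, at -0.62, since the other 7 wild-type arrays were all at -1.41 or lower. With the arrays scaled to 1 spread the difference was 0.52 and did not pass (limma adjusted p = 0.132). MSW1, the mitochondrial tryptophanyl-tRNA synthetase, was at 0.80, 1.17 and 0.74 in rpd3Δ, against -0.08 to 0.89 in wild type, with a median of 0.18 (difference 0.64, SE 0.18, limma adjusted p = 0.012). The strains overlapped on wild-type replicate 3 alone (0.89), and MSW1 passed with scaled arrays too. The 3 pho23Δ arrays had MSW1 at 0.84, 0.62 and 0.68, and the 3 arrays of the triple mutant at 0.72, 0.77 and 0.61. Leaving out rpd3Δ replicate 2 ended both calls, and without rpd3Δ replicate 3 only 1 gene, a mitochondrial one, was called. How many of all genes those fits called is not given here.

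MSF1, SLM5 and MST1, the mitochondrial genes with the largest wild-type ratios, had lower values in rpd3Δ on the deposited scale, without a call at 30 min. MSF1 was at 0.94, 1.14 and 1.26 in rpd3Δ, all below the 8 wild-type arrays, of which the lowest was 1.26 as well. SLM5 was at 0.86, 0.43 and 1.03 in rpd3Δ, against 1.06 to 1.88 in wild type, with no overlap. MST1 was at -0.18, 0.39 and 0.48 in rpd3Δ, against 0.34 to 1.83 in wild type. The difference was -0.51 for MSF1 and -0.88 for MST1, and with the arrays scaled to 1 spread -0.06 and -0.70 (limma adjusted p = 0.855 and 0.185), while SLM5 was not tested in this fit. In the fit of the H2O2 courses SLM5 was the 1 member called between the strains, where 17.1% of all genes were called, 10% higher and 7.01% lower (difference of the means over the times -0.57, SE 0.20, limma adjusted p = 0.0293, or -0.16 and adjusted p = 0.0311 with the arrays scaled to 1 spread). At 10, 20, 40 and 60 min SLM5 was at 0.61, 0.57, 0.32 and -0.35 in rpd3Δ, against 0.02, 1.24 and 1.90 at 10, 20 and 40 min in wild type. It was higher in rpd3Δ at 10 min and lower at 20 and 40 min, and wild type had no value at 60 min. The median difference over the courses was 0.29 for the cytosolic and -0.26 for the mitochondrial genes, or 0.045 and -0.15 with the arrays scaled to 1 spread. The number of members called in this fit was 0 without rpd3Δ replicate 2, 2 without wild-type replicate 3 or rpd3Δ replicate 1, 3 without wild-type replicate 8 and 4 without wild-type replicate 1. These counts stand without the share of all genes called in each fit.

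The number of calls and the sign of the shift depended on the arrays and on their scale, where scaling also removes a weaker response shared by all genes. Without wild-type replicate 8, ume6Δ replicate 4 and rco1Δ replicate 1, 8 members were called between rpd3Δ and wild type, where 30.1% of all genes were, and the cytosolic median was 0.40. The 6 cytosolic genes called, all higher, were CRS1, FRS2, GLN4, HTS1, KRS1 and MES1, and the mitochondrial ones MSW1, higher, and MST1, lower. Without wild-type replicate 8 alone 6 members were called, where 26.3% of all genes were. With the arrays scaled to 1 spread the cytosolic median turned to -0.09 and the mitochondrial median was 0.01, and MSW1 alone was called, where 23.1% of all genes were.

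The genes for tRNA maturation and modification give a contrast from the same pathway. In wild type 24 of the 28 tested fell at 30 min of H2O2 and 1 rose, where 34.1% of all genes fell and 34.3% rose. Their median was -1.15, close to that of the cytosolic synthetases. In rpd3Δ 16 of 28 were higher than in wild type, where 14.2% of all genes were, with a median difference of 0.93. When the arrays were scaled to 1 spread it was 14 of 28 with a median of 0.80, where 23.1% of all genes were called in either direction. Without the 3 arrays that stood apart it was 18 of 27, where 30.1% of all genes were called in either direction. The largest differences were those of DUS1 (2.87, SE 0.46) and DUS3 (2.32, SE 0.28), dihydrouridine synthases, and of the tRNA methyltransferase gene TRM2 (2.34, SE 0.41). Their ratios in wild type averaged -3.17, -1.93 and -2.54. The difference between the 2 lists was not tested.

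**Figure D4:**
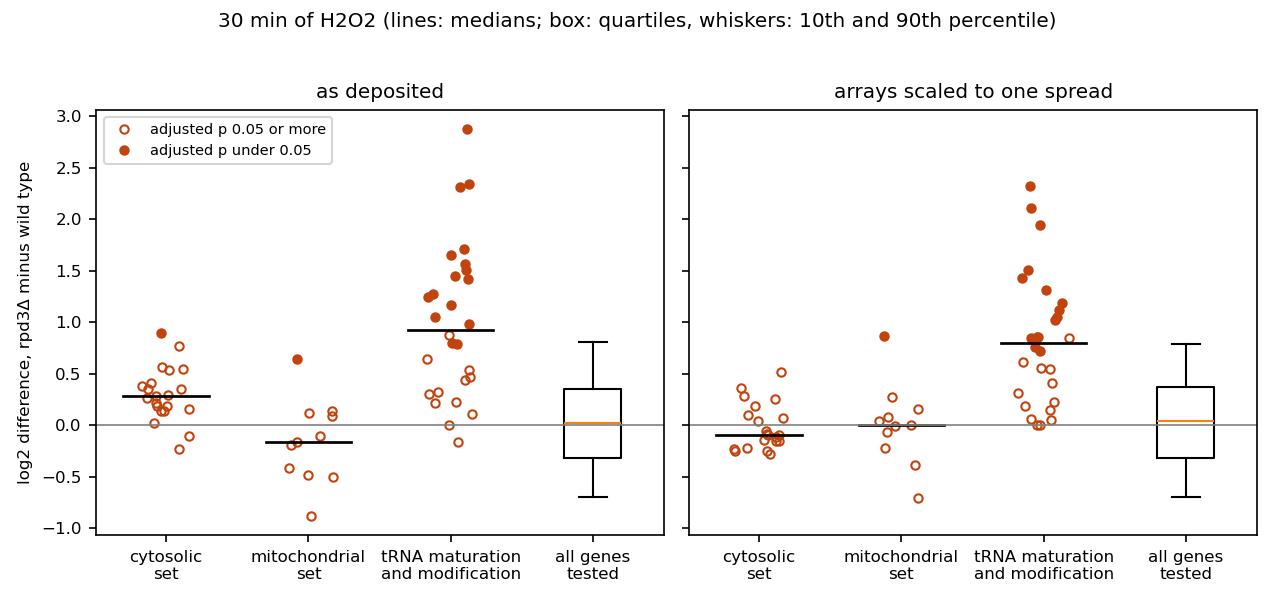
Difference of the log2 response at 30 min of H2O2, rpd3Δ minus wild type, with 1 point per gene for the cytosolic set, the mitochondrial set and the tRNA maturation and modification genes, and a box for all genes tested, as deposited on the left and with arrays scaled to 1 spread on the right. The cytosolic median is 0.29 as deposited and -0.09 scaled, while that of the tRNA maturation and modification genes is 0.93 and 0.80.

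In the other stresses no member was called between rpd3Δ and wild type. Heat shock gave none of 27 tested, where 1.54% of all genes were called (1.25% higher, 0.286% lower), with a cytosolic median difference of 0.28, or 0.12 with the arrays scaled to 1 spread. At an unadjusted p under 0.05 there were 3 members, where 12.1% of all genes were. A test of the mean over the times called 3 of the 27 members, where 10.7% of all genes were called, THS1 (0.80), VAS1 (1.34) and CRS1 (1.098), all less reduced in rpd3Δ. VAS1 in rpd3Δ was at -0.41, -0.69, 0.40 and 0.24 at 5, 15, 30 and 60 min of the first course and at -0.79, -1.32, -0.89, -0.42 and -0.47 at 5, 10, 20, 30 and 60 min of the second. CRS1 in rpd3Δ ran from -1.38 to 0.35, against -2.79 to 0.03 in wild type. NaCl gave none of 33, where 3.44% of all genes were called (2.16% higher, 1.28% lower), with a cytosolic median difference of 0.14, which turned to -0.10 with the arrays scaled to 1 spread. There was 1 member at an unadjusted p under 0.05, where 17.9% of all genes were, and 1 called by a test of the mean over the times, where 12.7% of all genes were. Stress relief gave none of 34, where 0% of all genes were called, with 1 at an unadjusted p under 0.05 (5.78% of all genes) and a cytosolic median difference of -0.11, or -0.04 scaled. With the course as a block no member was called in these 3 contrasts, with the shares of all genes called not given here.

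Taken array by array at the same time and course, the cytosolic mean as deposited was higher in rpd3Δ than in wild type at all 5 times of the H2O2 course, on 8 of 9 pairs of arrays in heat shock and 6 of 7 in NaCl, and on 3 of 7 in stress relief. Times of 1 course are not replicates of each other. The difference between the strains was largest at 40 min in H2O2 and at 20 min in heat shock, the times of the lowest wild-type means. The wild-type mean is part of the difference, with 1 array per strain at these times, so this match is no separate result. At 40 min of H2O2 the cytosolic mean was -0.87 in rpd3Δ and -1.59 in wild type, and at 20 min of heat shock -0.71 in rpd3Δ and -1.50 in wild type. The 20 min pair of heat shock comes from the second course, and for every pair of that course the labels give a higher growth temperature in rpd3Δ. In the first heat shock course alone the cytosolic mean was higher in rpd3Δ on 4 of 4 pairs. At 60 min of H2O2 the cytosolic mean was -0.88 in rpd3Δ and -0.99 in wild type.

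The other strains at 30 min of H2O2 kept the order of the sets on every array except ume6Δ replicate 4. The cytosolic mean was -0.63 ± 0.11 in pho23Δ, -0.85 ± 0.45 in rco1Δ, -0.52 ± 0.23 in msn2Δmsn4Δ and -0.50 ± 0.05 in the triple mutant (SD, n = 3 each), and -0.62 ± 0.57 in ume6Δ (SD, n = 4), or -0.90 ± 0.07 without replicate 4. The mitochondrial mean was 0.30 ± 0.19, 0.42 ± 0.14, 0.49 ± 0.20 and 0.14 ± 0.06 in the first 4 of these strains and 0.36 ± 0.45 in ume6Δ. The gap between the sets, cytosolic minus mitochondrial, was smallest in size in the triple mutant, at -0.64 ± 0.02, against -1.65 ± 0.61 in wild type. All genes were less spread on the triple mutant's arrays too (SD 0.76 to 0.97, against 0.99 to 1.44 in wild type). The gap on 1 scale common to the strains is not given here.

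**Figure D5:**
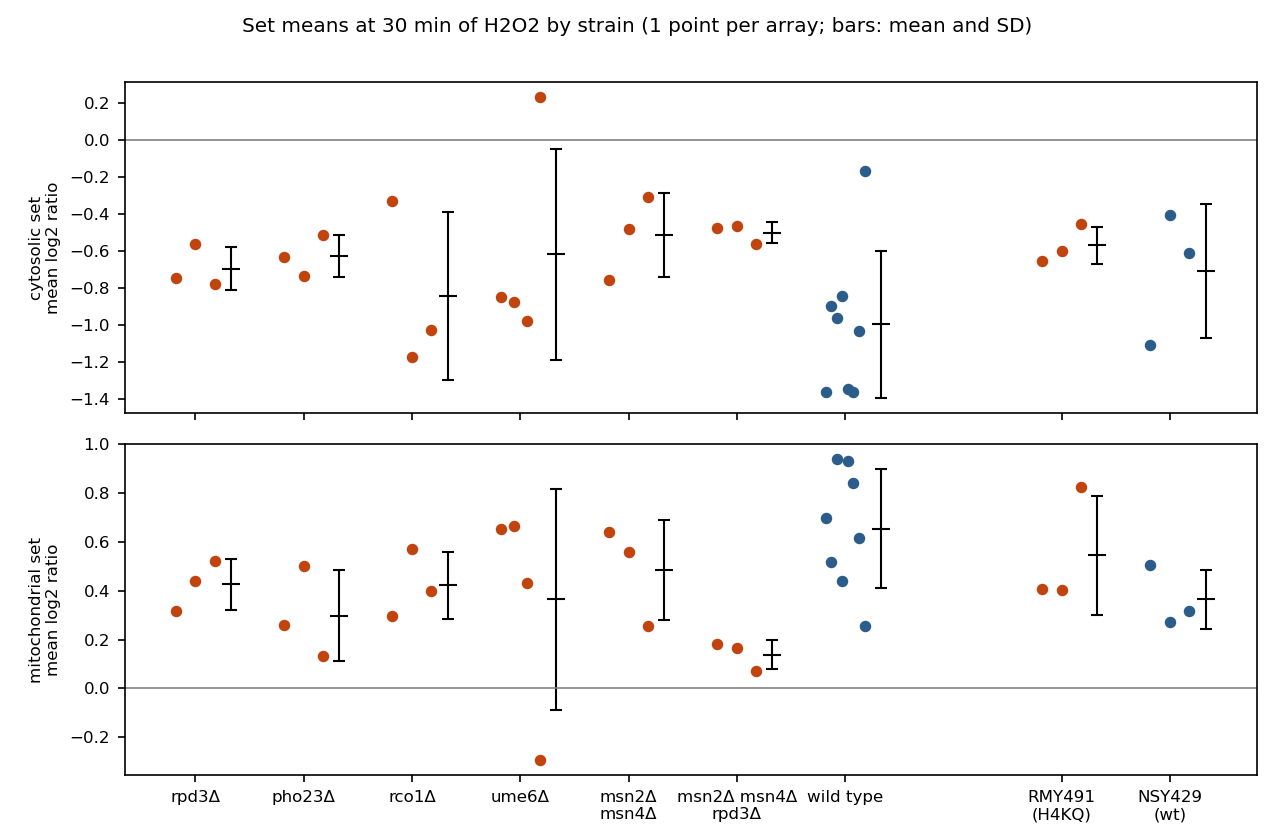
Mean log2 ratio of the cytosolic set and of the mitochondrial set at 30 min of H2O2 in each strain, with 1 point per array and bars for the mean and SD. The triple mutant has a cytosolic mean of -0.50 and a mitochondrial mean of 0.14, against -0.998 and 0.66 in wild type, and ume6Δ replicate 4 lies above 0 for the cytosolic set.

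In the triple mutant 6 cytosolic genes were higher and 3 mitochondrial genes lower than in wild type, where 31.3% of all genes were called, 16.6% higher and 14.8% lower. The share of members called, 9 of 32, was close to that of all genes. The median differences were 0.48 and -0.48, beside 0.03 over all genes. YHR020W was at -0.62, -0.53 and -0.55 in the triple mutant, against -2.70 to -0.51 in wild type (difference 1.33, SE 0.44, limma adjusted p = 0.0221). CRS1 was at -0.51, -0.38 and -0.49 (difference 1.06) and MES1 at -0.32, -0.58 and -0.67 (difference 0.93). For CRS1 all 3 arrays lay above the 8 wild-type arrays, and for YHR020W and MES1 the overlap was through wild-type replicate 8. KRS1, CDC60 and HTS1 were the other cytosolic genes called, by 0.90, 0.74 and 0.71.

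The mitochondrial genes that were lower in the triple mutant were MST1, MSF1 and MSD1. MST1 was at -0.08, 0.12 and -0.26 there, against 0.34 to 1.83 in wild type (difference -1.18, SE 0.35, limma adjusted p = 0.0122), with no overlap. MSF1 was at 1.303, 0.24 and 1.08 (difference -0.74, SE 0.23), where 1 of 3 arrays lay within the wild-type range. MSD1 was at 0.35, 0.36 and -0.01, against 0.50 to 1.15 in wild type (difference -0.55, SE 0.21, limma adjusted p = 0.045). With the arrays scaled to 1 spread the cytosolic and mitochondrial medians were 0.16 and -0.37, and the calls, where 30.3% of all genes were called, were CRS1 among the cytosolic genes, higher, and MSW1, higher, and MST1 and ISM1, lower, among the mitochondrial ones. Without the 3 arrays that stood apart 20 members were called, where 37.4% of all genes were. Leaving out the triple mutant's replicate 1 or 2 left 3 or 2 calls, with the shares of all genes called in those fits not given here.

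None of the other contrasts with wild type at 30 min called a member with limma. In pho23Δ, where 18.3% of all genes were called (9.81% higher, 8.5% lower), 7 members had an unadjusted p under 0.05 (31.8% of all genes did) and the medians were 0.37 and -0.35 for the cytosolic and mitochondrial genes, or 0.099 and -0.29 with the arrays scaled to 1 spread. Scaled, MSW1 was called, where 14.2% of all genes were. In msn2Δmsn4Δ, where 4.86% of all genes were called (1.5% higher, 3.36% lower), 10 of 32 had an unadjusted p under 0.05 (23.1% of all genes did) and the medians were 0.48 and -0.24, or 0.33 and -0.17 scaled. In ume6Δ, with 0.71% of all genes called (0.211% higher, 0.499% lower), 8 did (18.7% of all genes), and in rco1Δ, with 0.441% (0.345% higher, 0.0959% lower), 2 did (8.84%). The scaled medians were 0.28 and -0.24 in ume6Δ and 0.16 and -0.20 in rco1Δ. The counts of calls depended on wild-type replicate 8. Without it, 5 members were called in pho23Δ (22.5% of all genes), 5 in msn2Δmsn4Δ (10.6%) and 1 in ume6Δ (3.24%), and without all 3 arrays that stood apart 13 in pho23Δ (28.9% of all genes), 14 in msn2Δmsn4Δ (17.6%) and none in ume6Δ or rco1Δ. The 12 cytosolic genes called then in msn2Δmsn4Δ were all higher and the 2 mitochondrial genes, MSD1 and MSY1 for tyrosine, lower. The low-correlating msn2Δmsn4Δ replicates 1 and 3 were kept there, and leaving out msn2Δmsn4Δ replicate 1 alone gave 2 calls (12.5% of all genes). Leaving out wild-type replicate 3, 4 or 7 or pho23Δ replicate 2 gave 1 call in pho23Δ, and leaving out ume6Δ replicate 1 or 3 gave 1 in ume6Δ. For these last fits the share of all genes called is not given here.

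The triple mutant and msn2Δmsn4Δ, both without MSN2 and MSN4, had none of the 32 members tested called between them with limma, where 9.39% of all genes were called (6.22% higher, 3.17% lower). At an unadjusted p under 0.05 there were 2, where 23.1% of all genes were. The median difference, triple mutant minus msn2Δmsn4Δ, was 0.02 over the cytosolic genes, and -0.22 with arrays scaled to 1 spread. The tRNA maturation and modification genes had 10 of 28 higher in the triple mutant, with a median of 0.76. The H4KQ strain had none of 33 members called against NSY429, where 0.0589% of all genes were (0.0196% higher, 0.0393% lower), and 2 members at an unadjusted p under 0.05 (14.2% of all genes). The cytosolic median difference was 0.10, and -0.01 with the arrays scaled to 1 spread. The cytosolic mean in H4KQ was -0.57 ± 0.10, against -0.71 ± 0.36 in NSY429, and the mitochondrial mean in H4KQ 0.55 ± 0.24, against 0.36 ± 0.12 (SD, n = 3 each).

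Without stress, none of the 29 members tested was called between rpd3Δ and wild type with limma, where 3.5% of all genes were called (2.53% higher, 0.972% lower), and 2 had an unadjusted p under 0.05, where 25.6% of all genes did. The median was -0.26 over 18 cytosolic genes and 0.03 over 11 mitochondrial genes, beside values close to 0 over all genes. The set means on the 3 arrays lay between -0.36 and -0.13 for the cytosolic and between 0.07 and 0.09 for the mitochondrial set. MSF1 was at 0.29, 0.60 and 0.85 in rpd3Δ over wild type, and DIA4, the mitochondrial seryl-tRNA synthetase, averaged -0.34. These were the 2 genes with an unadjusted p under 0.05. Unstressed ratios of THS1 were -0.07, -0.18 and -1.82, the last on replicate 3. Without that replicate 4 members were called, and with the dye orientation as a covariate 12, in a fit of 3 arrays. The shares of all genes called in these 2 fits are not given here, so the counts are no result about the members.

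Inhibition or inactivation of the deacetylase was followed on single arrays, with no test. In heat-shocked wild type the cytosolic mean was -0.41 with trichostatin A and -0.38 with DMSO at 5 min, -1.14 and -1.64 at 15 min, and -0.87 and -1.19 at 30 min. The median difference, trichostatin A minus DMSO, was 0.04, 0.51 and 0.33, beside -0.03, -0.02 and -0.02 over all genes, and 13, 21 and 21 of 23 cytosolic genes were higher with the inhibitor. With the arrays scaled to 1 spread the medians were -0.08, 0.17 and 0.15, so the sign at 5 min turned. In rpd3Δ cells at 20 min of heat shock the cytosolic mean was -0.84 with the allele rpd3H150:151A and -1.20 with wild-type RPD3, and 19 of 23 genes were higher with the allele (median difference 0.39, or 0.08 scaled). At 30 min of H2O2 it was -0.90 with the allele and -1.32 with RPD3, and 19 of 22 genes were higher, with a median difference of 0.41, or 0.055 scaled, beside 0.19 over all genes. Of the mitochondrial genes 11 of 13 were higher there too, with a median difference of 0.25. The empty plasmid was at -0.88 in heat shock against -1.14 with RPD3 over the 19 genes measured on both arrays, and its median difference of 0.20 turned to -0.21 when scaled.

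Genes that work beside the synthetases were followed from lists. Of the 5 genes listed for organelle charging, PET112 and HER2, subunits of the mitochondrial amidotransferase that makes glutaminyl-tRNA, rose in wild type at 30 min of H2O2, by 0.76 (SE 0.11) and 0.34 (SE 0.10). Of all genes 34.3% rose there. FMT1 and TUF1 did not pass, and the lowest value of the 5 genes was -0.19. The third subunit of the amidotransferase, GTF1, averaged 0.18 in wild type, and its response was lower in msn2Δmsn4Δ than in wild type (difference -1.79, SE 0.26, limma adjusted p = 0.000193). GTF1 was also lower in the triple mutant than in wild type (-0.72, limma adjusted p = 0.0173), and higher in the triple mutant than in msn2Δmsn4Δ (1.07, limma adjusted p = 0.0294). Of the 4 genes listed for the sensing of uncharged tRNA, GCN4, the transcription factor of the general amino acid control, and GCN1, an activator of the kinase Gcn2p, fell in wild type, to -1.13 (SE 0.14) and -0.79 (SE 0.14), while GCN2 and GCN20, at -0.17 and -0.13, did not pass. In the same fit 34.1% of all genes fell.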

How the data were processed

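The authors hybridised stressed and unstressed cDNA to 2-colour spotted arrays and deposited log2 ratios for 109 arrays of 6297 genes, of which 5832 were given names from RefSeq. Ratios run as stressed over unstressed, or rpd3Δ over wild type without stress. Background correction, normalization and the reason for empty cells are not given in the sources used here. Array means lay between -0.0017 and 0.000966. Ratios keep no depth or channel intensity, so the number of arrays limits the precision. NaCl was 0.75 M in the channel labels, while descriptions give a slightly lower dose.

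Genes with values on 80% or more of a fit's arrays were tested with limma 3.58.1 in R 4.3.3 and Benjamini-Hochberg adjustment over all genes. The 27 arrays of BY4741 strains at 30 min of H2O2 shared 1 fit, in which wild-type replicate 1, rpd3Δ replicate 1 and the like are arrays of the time courses. Time courses were tested with a moderated F-test over the time points, with direction from the mean over them. Times with 1 array per strain took their spread from the times with more arrays, which in H2O2 was 30 min alone. Sets were summarised with Python 3.11, numpy 2.4.6 and pandas 2.3.3. The fits were tested on simulated data. All 36 members could be named. Values by array are given for GRS1, GRS2, the ARC1 complex and the members that moved most in each comparison, with a few others (ISM1, MSR1, DIA4, ILS1, THS1) named after their values were seen. The members and gene lists were chosen with earlier results of these data known.

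Course numbers were treated as pairing rpd3Δ and wild type in heat shock, NaCl and stress relief, where deviations from the group means correlated at 0.144 to 0.59. The reported fits are without this block, and the fit with it is an alternative. Alternatives were centred or scaled arrays, other filters and thresholds, dye orientation, blocks, other sets of arrays, the mean over times and leaving out each array or course. Leaving out the arrays that stood apart was chosen after seeing the data.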

Additional observations from a re-analysis of the deposited data

Results flagged for a closer look

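In 12 of 65 tests, 1 array lay far from the others by Dixon's criterion. The tests took single members and the cytosolic and mitochondrial means in 2 groups of arrays, wild type and ume6Δ at 30 min of H2O2. Values from 1 array and the means built from them are not independent, so the 12 are not set against a chance rate. All 12 were values of only 2 arrays at 30 min of H2O2. On wild-type replicate 8 these were DED81 (-0.049), FRS1 (-0.079), FRS2 (-0.56), MES1 (-0.35), ARC1 (0.17) and the cytosolic mean (-0.17), each higher than on the other wild-type arrays. On ume6Δ replicate 4 they were ALA1 (0.043), YDR341C, for arginine (0.36), YHR020W (0.093) and the cytosolic mean (0.23), all higher than on the other ume6Δ arrays, and the mitochondrial genes MSE1, for glutamate (-0.54), and MSR1 (-0.65), both lower.

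Some responses differed between strains by the test of the difference itself. In rpd3Δ minus wild type at 30 min of H2O2 these were CRS1 (0.89) and MSW1 (0.64), and over the H2O2 courses SLM5 (-0.57). In the triple mutant minus wild type they were YHR020W (1.33), CRS1 (1.06), MES1 (0.93), KRS1 (0.90), CDC60 (0.74) and HTS1 (0.71), and MST1 (-1.18), MSF1 (-0.74) and MSD1 (-0.55).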

How the results depend on the processing

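Of 414 alternatives of counts and set values, 350 stayed close to the reported value. Some of them could not do otherwise. Centring the arrays cancels in the gap between the sets. Leaving out 1 array of a group moves its mean gap by less than the SD that counted as close. The 350 are therefore no measure of how firm the results are. Values below are members called unless said otherwise. The share of all genes called differed between fits too. In rpd3Δ minus wild type at 30 min of H2O2 it was 24.3% as reported, 23.1% with scaled arrays and 30.1% without the arrays that stood apart. Counts given without that share are no result about the members. A looser threshold gave 4 in rpd3Δ minus wild type at 30 min of H2O2, 7 in pho23Δ, 2 in wild-type stress relief and 2 in rpd3Δ minus wild type over the H2O2 courses. Scaled arrays gave 1 in rpd3Δ, 1 in pho23Δ, 4 in the triple mutant, 3 in wild-type heat shock, 6 in wild-type NaCl and 2 in the rpd3Δ course contrast. Wild-type replicates 1 to 3 alone gave 0 in rpd3Δ, and a fit of the 2 strains alone 5 in rpd3Δ and 4 in pho23Δ. Without the arrays that stood apart there were 8 in rpd3Δ, 13 in pho23Δ, 14 in msn2Δmsn4Δ and 20 in the triple mutant. The mean over times gave 3 in heat shock and 1 in NaCl for rpd3Δ minus wild type, 2 in wild-type stress relief and 2 in the rpd3Δ course contrast. NaCl gave 8 with the 50% filter and 8 with none, and the dye covariate 12 without stress. The causes were not tested.

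Replicate numbers at 30 min of H2O2 did not pair the arrays (correlations -0.388 to 0.259). With the replicate block 26 members were called in wild type, 2 in rpd3Δ, 2 in pho23Δ, 10 in the triple mutant and 0 in the other contrasts at that time. With the course as replicate block 12 were called in wild-type heat shock, 10 in wild-type NaCl, 2 in wild-type stress relief and 0 in rpd3Δ minus wild type in each of these 3. The shares of all genes called with these blocks are not given here, so the counts are no result about the members.

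Leaving out 1 array at a time gave 28 to 30 in wild type at 30 min of H2O2, 0 to 6 in rpd3Δ, 0 to 5 in pho23Δ and 0 to 1 in ume6Δ. It gave 0 to 5 in msn2Δmsn4Δ, 2 to 12 in the triple mutant, 0 to 4 in the rpd3Δ course contrast and 0 to 4 without stress. Fewer members than reported were called in wild-type heat shock and NaCl with a wild-type course left out. A time point left with 1 array was assumed to vary like the others. Here too the counts stand without the share of all genes called in each fit and are no result about the members.

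The gap between the sets in the triple mutant was -0.69 with medians and -0.67 without ARC1 and GRS2. For trichostatin A minus DMSO the cytosolic median was 0.060, 0.55 and 0.37 with centred arrays, and -0.083, 0.17 and 0.15 with scaled ones, at 5, 15 and 30 min. For rpd3H150:151A minus RPD3 scaling gave 0.084 in heat shock and 0.055 in H2O2, with 0.30 centred in H2O2, and for pRS415 minus RPD3 centring gave 0.18 and scaling -0.21. For single members the fits that each left out 1 replicate entered as their lowest and highest estimate. Both entries count as lost if any of those fits lost the call. Of 354 such entries and other alternatives, 61 lost the call and none turned direction.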
